A study of Mus musculus with 20 samples.

Results

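De novo lipogenesis is the pathway by which hepatocytes turn surplus carbohydrate into fatty acids, and 10 of its genes were followed here among the 50559 genes counted in 20 mouse liver and liver tumor libraries. The genes were chosen by symbol, with earlier results of these data known. They were the enzymes Acly, Acaca, Acacb, Fasn, Elovl6, Scd1 and Scd2, the transcription factors Srebf1 and Mlxipl, and the lipogenic protein Thrsp. In the pathway, citrate that leaves the mitochondrion is split into acetyl-CoA, acetyl-CoA is carboxylated to malonyl-CoA, and a multifunctional synthase builds palmitate from both. Elongases and desaturases then lengthen the chain and insert a double bond, and in liver the genes are raised after feeding by insulin through SREBP-1c, the product of Srebf1, and by glucose through ChREBP, the product of Mlxipl.

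The libraries came from C57Bl6J wild-type mice, and each of the 4 groups held 5 libraries. The mice were females injected as young adults, per the study's methods. Tumors had been started by hydrodynamic gene transfer, a rapid tail vein injection that brings plasmids into a subset of hepatocytes, with the Sleeping Beauty transposase. All tumors received a MYC plasmid, combined with human FGF19, with its engineered analog Aldafermin, which carries changes at the N-terminal end, or with a CRISPR construct against Trp53 (sgTrp53). The livers are labelled Healthy and Non treated, whereas the study describes its control livers as given a plasmid for red fluorescent protein by the same gene transfer. Every tumor against liver comparison spans MYC, its partner and the growth of a tumor together, and whether it also spans the injection is not settled by these sources. The RNA came from individual tumors, and per the study's methods mice were fasted for some hours before collection. The labels give the treatment of the sgTrp53+MYC tumors as None, and their group was taken from the sample titles. The study describes the sequenced tumors as taken from different mice, and each library, livers included, carries a number of its own in the labels, so p-values measure the spread between these samples.

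Reads assigned to genes ranged from 18004977 to 66354724 per library, and the 5 sgTrp53+MYC libraries, which came in a count table of their own, were the deepest at 54042455 to 66354724. Of the reads in these 5 libraries, 11.1% to 14.6% were ambiguous between genes, against 3.03% to 6.30% in the other 15 libraries, so the sgTrp53+MYC group and its table cannot be told apart. Trp53 stood at 18.7 to 79.9 CPM (reads of a gene relative to the scaled total of its library) in the sgTrp53+MYC tumors, at 90.8 to 176 CPM in the Aldafermin+MYC and FGF19+MYC tumors and at 28.8 to 36.4 CPM in the livers. A guide that cuts the gene need not lower its RNA. The 10 hepatocyte markers examined summed to 194280 to 243210 CPM in the livers, and all 10 were lower in each tumor group, whose summed levels were 9514 to 24170 CPM with Aldafermin, 10929 to 30911 CPM with FGF19 and 4673 to 13059 CPM with sgTrp53. Of all genes tested, 31.9% to 33% were called lower than in livers by the test given below. None of the 10 markers was at the floor of 3 counts in any group. In bulk RNA, fewer hepatocytes and less RNA of a gene per hepatocyte cannot be told apart, and the part of the marker difference in the results that follow was not tested.

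Promoter sequence was taken for the members from RefSeq (a table of build GRCm38.p6, placed on GRCm39 by exact and single matches), which held 11 promoters of 8 of the 10 members. Scd1 and Scd2 are not in it. The letters searched on both strands were CACGTG (E-box, the kind of site that ChREBP and SREBP-1 can bind), TCACNCCAC (core of a sterol response element) and CCAAT (the box bound by NF-Y). Counted per promoter, CCAAT was found in 7 of the 11 members' promoters (63.6%), which belong to 6 genes, against 37.4% of all 32851 promoters of 300 bases in the table. E-box letters lay in 1 of the 11 promoters (9.09%), that of Mlxipl, against 7.15% of all promoters. The sterol element letters also lay in 1 of the 11, at the other start site of Mlxipl, against 1.24%. Printed here are the 250 bases before the start sites of Fasn, the synthase itself, of Thrsp, the only member called between tumor groups, and of both Mlxipl start sites, which held the rarer letters. The Thrsp call, given below, was lost on leaving out any of several single libraries. Capitals mark the letters found.
Fasn, chr11:120715374-120715623, minus strand: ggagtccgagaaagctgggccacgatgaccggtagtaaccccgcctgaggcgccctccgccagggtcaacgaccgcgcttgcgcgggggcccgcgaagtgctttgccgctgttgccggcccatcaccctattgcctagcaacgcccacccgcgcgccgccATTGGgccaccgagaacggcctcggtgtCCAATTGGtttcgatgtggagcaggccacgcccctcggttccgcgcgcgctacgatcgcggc
Thrsp, chr7:97066758-97067007, minus strand: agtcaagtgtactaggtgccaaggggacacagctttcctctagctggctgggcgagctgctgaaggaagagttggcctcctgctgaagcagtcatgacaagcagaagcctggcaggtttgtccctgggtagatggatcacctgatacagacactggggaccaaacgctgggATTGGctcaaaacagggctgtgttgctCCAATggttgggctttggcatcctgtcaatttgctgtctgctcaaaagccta
Mlxipl, chr5:135118494-135118743, plus strand: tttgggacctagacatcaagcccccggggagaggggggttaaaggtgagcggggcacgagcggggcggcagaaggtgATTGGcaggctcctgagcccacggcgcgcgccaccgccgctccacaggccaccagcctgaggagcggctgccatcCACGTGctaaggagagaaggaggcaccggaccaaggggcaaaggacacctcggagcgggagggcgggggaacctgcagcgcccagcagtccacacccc
Mlxipl, chr5:135135495-135135744, plus strand: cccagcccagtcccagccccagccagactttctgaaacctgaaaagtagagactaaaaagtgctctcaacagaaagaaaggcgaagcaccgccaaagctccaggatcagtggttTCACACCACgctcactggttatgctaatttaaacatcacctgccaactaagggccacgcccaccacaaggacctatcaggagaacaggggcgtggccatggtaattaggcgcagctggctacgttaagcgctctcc
In Fasn the CCAAT letters began at -90, -62 and -59 from the start site, the last pair overlapping on opposite strands, and in Thrsp at -79 and -52. The Mlxipl E-box letters began at -98 and its sterol element letters at -136. A match of letters is a description of the sequence and shows no binding.

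Compared with livers, tumors of all 3 kinds held less RNA of nearly every lipogenic gene, by about a factor of 2 for Fasn and far more for Scd1, Acacb and Thrsp, while Scd2 went the other way. All 10 members were among the 14333 genes tested by edgeR's quasi-likelihood test with Benjamini-Hochberg adjustment over all of them, and a gene was called at an adjusted p under 0.05. In Aldafermin+MYC tumors 9 members were called lower and 1, Scd2, higher, where 31.9% of all genes tested were called lower and 38.4% higher. FGF19+MYC tumors gave the same counts, 9 lower and 1 higher, against 32.9% and 36.9% of all genes. In sgTrp53+MYC tumors 8 were lower and 1 higher, against 33% and 36.9% of all genes. The members' median log2 fold changes were -1.56, -1.55 and -1.61 in that order of tumors, beside medians over all genes tested of 0.13, 0.06 and 0.07. The 3 comparisons share the same 5 livers. The members were chosen with earlier results of these data known, so the shares of all genes are a setting for these counts and no test of the list. How many of all genes separate every tumor from every liver was not counted, so such separation, given below gene by gene, only describes each gene.

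The scale matters for the smaller of these changes. The 50 most abundant genes took 34.4% to 37.9% of gene reads in the livers and 14.7% to 21.96% in the tumors, and the TMM factors that correct for such a difference were 0.61 to 0.68 in the livers and 1.00 to 1.31 in the tumors. Scaling by library size alone moved the median log2 fold change of all genes against livers to 0.97, 0.91 and 0.95 with Aldafermin, FGF19 and sgTrp53, and the share of higher genes among calls from 54.6%, 52.9% and 52.8% to 78.2%, 77.3% and 77.9%. Under library size alone Fasn, Acaca, Acly and Elovl6 were not called lower in Aldafermin+MYC or FGF19+MYC tumors. In sgTrp53+MYC tumors Fasn lost its call under library size alone, and Acaca was called under neither scaling. Scd1, Acacb, Thrsp, Srebf1 and Mlxipl stayed lower and Scd2 higher in all 3 comparisons under that scaling.

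**Figure D1:**
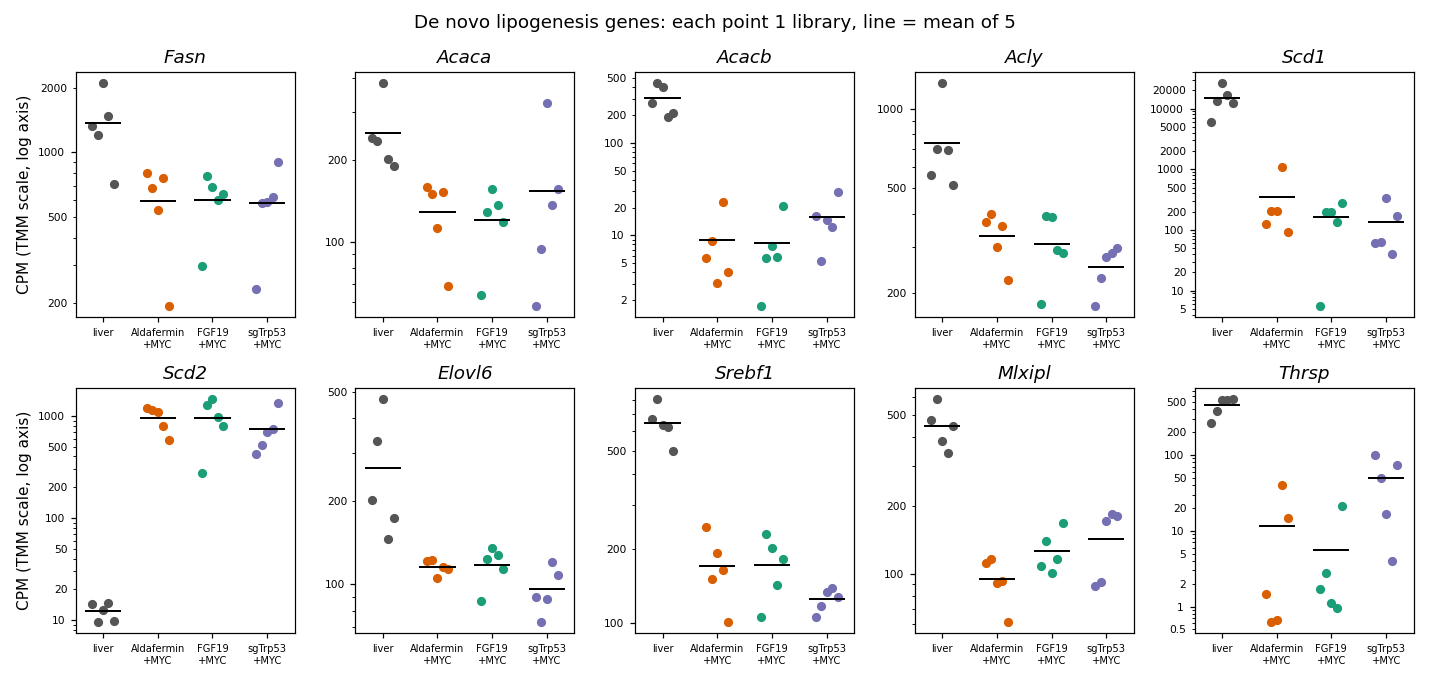
CPM on the TMM scale (log axis) of the 10 lipogenic genes in each of the 20 libraries, with the mean of 5 libraries as a line. The livers lie above all 15 tumors for Acacb, Acly, Scd1, Elovl6, Srebf1, Mlxipl and Thrsp and below all 15 for Scd2. How many of all genes tested separate in this way was not counted.

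Acly encodes ATP citrate lyase, which makes the cytosolic acetyl-CoA used for fatty acid synthesis, and its gene lies on chr11:100367165-100440756 (GRCm39). Its livers ranged from 514 to 1249 CPM with a median of 695 CPM, and replicate 3 held the highest value. The 15 tumors ranged from 179 to 398 CPM, all below the lowest liver. The log2 fold changes were -1.17 (SE 0.25, adjusted p = 0.000397) with Aldafermin, -1.27 (SE 0.25, adjusted p = 0.000179) with FGF19 and -1.56 (SE 0.25, adjusted p = 2.09e-05) with sgTrp53 by edgeR's quasi-likelihood test.

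Acaca and Acacb encode the acetyl-CoA carboxylases: the cytosolic isoform, whose malonyl-CoA feeds synthesis, and the isoform at the mitochondrion, whose malonyl-CoA restrains the import of fatty acids for oxidation. In the livers Acaca stood at 241, 235, 383, 202 and 191 CPM in replicates 1 to 5. Acacb stood at 271, 441, 401, 188 and 212 CPM in the same livers. Both isoforms were thus abundant in liver, and per kilobase of exon Acacb was the higher, at 29.7 ± 11.1 against 13.6 ± 4.18 CPM per kb (SD, n = 5). That order depends on the exon lengths used, 18396 bases for Acaca and 10184 for Acacb, each the union over annotated transcripts. Without division by length the mean log2 ratio of Acacb over Acaca in livers was 0.24, and in replicate 4 Acaca was the higher.

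In Aldafermin+MYC tumors Acacb fell to 5.71, 8.81, 3.04, 22.9 and 3.98 CPM. It read 1.73, 5.64, 7.72, 5.78 and 21.0 CPM in FGF19+MYC tumors. With sgTrp53 the values were 16.4, 5.30, 14.9, 12.3 and 29.5 CPM. No tumor came near the lowest liver, and the means were 34.0-, 36.1- and 19.3-fold higher in livers than in the Aldafermin+MYC, FGF19+MYC and sgTrp53+MYC tumors. The log2 fold changes of Acacb were -5.09 (SE 0.68, adjusted p = 1.78e-06), -5.17 (SE 0.68, adjusted p = 1.57e-06) and -4.27 (SE 0.65, adjusted p = 9.05e-06) by edgeR.

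Acaca moved much less. Its Aldafermin+MYC tumors held 159, 150, 113, 152 and 69.2 CPM, and its FGF19+MYC tumors 63.9, 128, 156, 137 and 118 CPM, all below the lowest liver. With sgTrp53 they were 58.2, 94.2, 323, 137 and 156 CPM, and replicate 3 lay within the range of the livers. By edgeR the log2 fold change of Acaca was -0.96 with Aldafermin (SE 0.36, adjusted p = 0.0230) and -1.05 with FGF19 (SE 0.36, adjusted p = 0.0141). In sgTrp53+MYC tumors the value of -0.71 (95% interval -1.46 to 0.04, adjusted p = 0.0860) did not pass, and without sgTrp53+MYC replicate 3 it was -1.17 (adjusted p = 0.00313). The call with Aldafermin was lost without Aldafermin+MYC replicate 5 (-0.74, adjusted p = 0.0758) or without liver replicate 3 (-0.76, adjusted p = 0.0764).

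Within a library the ratio of the isoforms needs no scaling between libraries. The log2 ratio of Acacb over Acaca counts averaged 0.24 ± 0.39 in livers, -4.19 ± 0.94 in Aldafermin+MYC, -4.21 ± 1.02 in FGF19+MYC and -3.26 ± 1.12 in sgTrp53+MYC tumors (SD, n = 5 each). The differences from livers were -4.42, -4.45 and -3.49, each with p = 0.00794 in a two-sided exact permutation test, the smallest that 5 against 5 libraries can give, and 0.0159 after adjustment over 20 ratio tests. Per length, Acacb made up 62.6% to 77.2% of the summed isoforms in livers and 4.66% to 33.7% in the 15 tumors, shares that depend on the exon lengths used.

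Fasn encodes fatty acid synthase, the enzyme that builds palmitate, on chr11:120696672-120715995 (GRCm39). In the livers it stood at 1328, 1210, 2103, 1478 and 713 CPM. Aldafermin+MYC tumors held 802, 686, 540, 761 and 193 CPM, and FGF19+MYC tumors 295, 779, 691, 600 and 638 CPM. The sgTrp53+MYC tumors held 233, 579, 586, 621 and 901 CPM. The groups overlapped through liver replicate 5, the lowest liver, below which 11 of the 15 tumors lay. The log2 fold changes of Fasn were -1.20 (SE 0.38, adjusted p = 0.00868), -1.19 (SE 0.38, adjusted p = 0.00921) and -1.23 (SE 0.38, adjusted p = 0.00743) with Aldafermin, FGF19 and sgTrp53 by edgeR. Under library size alone the same values were -0.34, -0.33 and -0.33, none of them called.

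Elovl6, the elongase that turns palmitate into stearate, was lower in tumors with little spread among them. Its livers ranged from 146 to 469 CPM with a median of 203 CPM, and the 15 tumors from 72.8 to 135 CPM with a median of 114 CPM. The 5 Aldafermin+MYC tumors were within 105 to 123 CPM, the narrowest relative range of any member in any group, 1.17-fold from lowest to highest. The log2 fold changes were -1.19 (SE 0.25, adjusted p = 0.000269), -1.17 (SE 0.25, adjusted p = 0.000321) and -1.46 (SE 0.25, adjusted p = 3.26e-05) by edgeR.

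**Figure D2:**
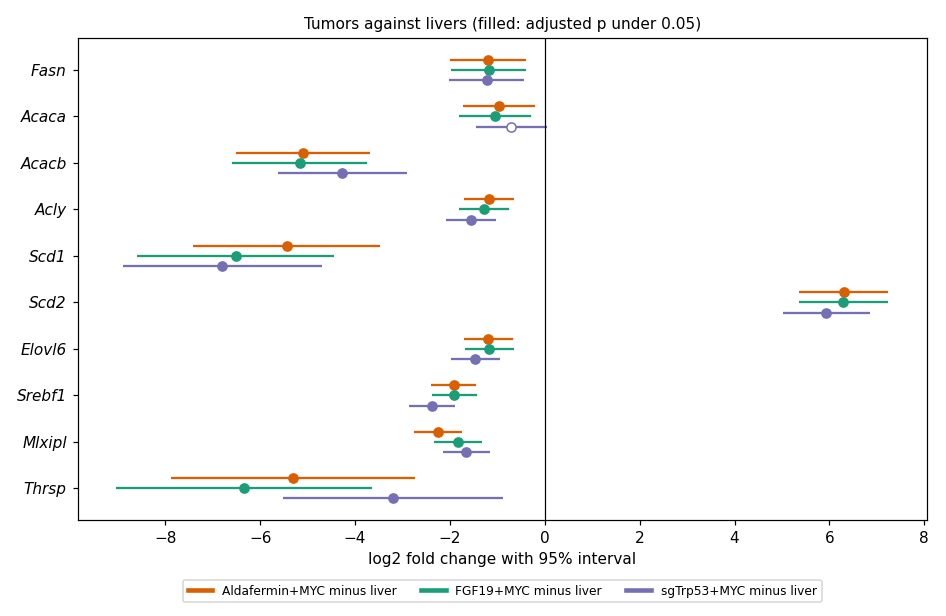
Log2 fold changes of the 10 genes in each tumor group against the same 5 livers, with 95% intervals (horizontal axis) and filled points where the adjusted p was under 0.05. Scd2 lies near 6 on the right in all 3 groups, and the open point is Acaca in sgTrp53+MYC tumors at -0.71.

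The largest exchange was between the stearoyl-CoA desaturases, which insert the double bond that makes oleate and palmitoleate. Scd1 is the main isoform of adult mouse liver, and Scd2 is better known from brain and from fetal and newborn liver. The genes are neighbours on chromosome 19 of GRCm39, Scd2 at chr19:44281613-44295303 on the plus strand and Scd1 at chr19:44382894-44399154 on the minus strand, with 87590 bases between them. They are similar in sequence, and how reads matching both were handled beyond the exclusion of non-unique alignments is not given in the sources used here.

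Livers held 5920, 13093, 26281, 16718 and 12429 CPM of Scd1 in replicates 1 to 5. Aldafermin+MYC tumors held 125, 204, 204, 1093 and 94.2 CPM, and FGF19+MYC tumors 5.58, 199, 194, 134 and 278 CPM. Scd1 in sgTrp53+MYC tumors stood at 61.4, 63.9, 336, 39.9 and 168 CPM. Every tumor lay below every liver, and the tumors spread widely among themselves, from FGF19+MYC replicate 1 with 100 counts to Aldafermin+MYC replicate 4. The means were 43.3-, 91.8- and 111-fold higher in livers than in the Aldafermin+MYC, FGF19+MYC and sgTrp53+MYC tumors. Its log2 fold changes were -5.44 (SE 0.94, adjusted p = 4.27e-05), -6.52 (SE 0.99, adjusted p = 9.63e-06) and -6.80 (SE 1.00, adjusted p = 6.53e-06) by edgeR.

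Scd2 showed the opposite order, with 14.2, 9.49, 12.6, 14.8 and 9.88 CPM in the livers. Aldafermin+MYC tumors held 1201, 1132, 1092, 804 and 583 CPM, and FGF19+MYC tumors 273, 1292, 1454, 970 and 795 CPM. Scd2 in sgTrp53+MYC tumors stood at 421, 518, 701, 747 and 1341 CPM. The group means were 79.0-, 78.5- and 61.2-fold higher than in livers with Aldafermin, FGF19 and sgTrp53. The lowest tumor, FGF19+MYC replicate 1, was far above the highest liver. It was also the lowest FGF19+MYC tumor for every other member except Mlxipl and Thrsp. Its library was the shallowest, at 18004977 gene reads, and had the largest share of reads not aligned, 34.0%. The part of this in its values was not tested. Scd2 rose by 6.31 (SE 0.45, adjusted p = 3.42e-10), 6.30 (SE 0.45, adjusted p = 3.33e-10) and 5.94 (SE 0.44, adjusted p = 5.76e-10) on the log2 scale by edgeR.

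Per kilobase of exon the isoforms together were still lower in tumors. Their summed level was 2068 ± 1036 CPM per kb in livers, 176 ± 59.4 with Aldafermin, 150 ± 70.97 with FGF19 and 118 ± 55.0 with sgTrp53 (SD, n = 5 each). Scd2 made up 0.0458% to 0.229% of that sum in livers, 41.3% to 90.2% in Aldafermin+MYC, 73.2% to 97.9% in FGF19+MYC and 66.6% to 94.7% in sgTrp53+MYC tumors. The log2 ratio of Scd2 over Scd1 counts averaged -10.1 ± 0.86 in livers, 2.07 ± 1.44, 3.12 ± 1.504 and 2.82 ± 1.13 in the tumor groups in that order. The differences of 12.2, 13.2 and 12.9 each gave p = 0.00794 in a two-sided exact permutation test, adjusted to 0.0159.

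**Figure D3:**
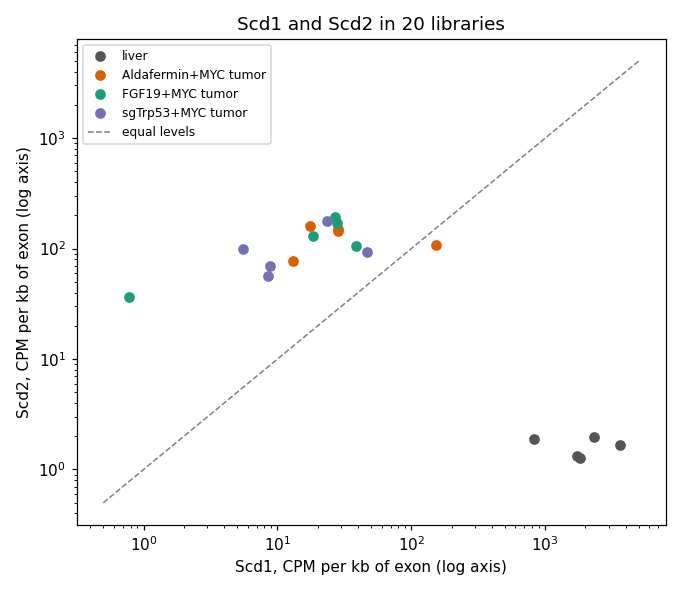
Scd2 against Scd1 in CPM per kb of exon (both axes logarithmic), 1 point per library, with a dashed line where the levels are equal. The 5 livers lie at the lower right with under 0.23% Scd2, and 14 of the 15 tumors lie above the line, all but Aldafermin+MYC replicate 4.

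Srebf1 encodes SREBP-1, which drives transcription of the lipogenic enzymes in response to insulin. Its livers held 672, 807, 637, 621 and 497 CPM. The Aldafermin+MYC tumors held 245, 151, 191, 164 and 100 CPM, the FGF19+MYC tumors 106, 230, 202, 143 and 181 CPM. The sgTrp53+MYC tumors, at 105, 117, 134, 139 and 128 CPM, were the closest together. No tumor reached the lowest liver. The log2 fold changes of Srebf1 were -1.92 (SE 0.23, adjusted p = 3.63e-07), -1.91 (SE 0.23, adjusted p = 4.04e-07) and -2.38 (SE 0.23, adjusted p = 2.35e-08) by edgeR.

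The gene level does not separate the SREBP-1a and SREBP-1c transcripts of Srebf1. Set against Srebf2, whose product mainly drives cholesterol synthesis genes, Srebf1 was lower in every tumor group than in livers. The log2 ratio of Srebf1 over Srebf2 counts was 2.57 ± 0.22 in livers and -0.31 ± 0.31, -0.17 ± 0.17 and -0.22 ± 0.41 with Aldafermin, FGF19 and sgTrp53 (SD, n = 5 each). The differences were -2.88, -2.74 and -2.79, each with p = 0.00794 in a two-sided exact permutation test and 0.0159 adjusted. Part of each difference lay in Srebf2. Its own log2 fold changes against livers were 0.93 (adjusted p = 0.000949), 0.80 (adjusted p = 0.00308) and, not called, 0.47 (adjusted p = 0.0613) by edgeR.

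Mlxipl encodes ChREBP, the factor through which glucose raises lipogenic and glycolytic genes. It stood at 475, 589, 386, 343 and 448 CPM in livers. Aldafermin+MYC tumors held 112, 116, 90.8, 93.1 and 61.1 CPM, FGF19+MYC tumors 108, 139, 101, 116 and 167 CPM. The sgTrp53+MYC tumors held 88.4, 92.1, 170, 183 and 179 CPM, replicates 1 and 2 lying apart from the other three. All tumors were below all livers, and the log2 fold changes were -2.25 (SE 0.24, adjusted p = 1.22e-07), -1.83 (SE 0.24, adjusted p = 1.58e-06) and -1.65 (SE 0.24, adjusted p = 5.01e-06) by edgeR. Exons of Gm43500 on the opposite strand cover 3.36% of its exon bases, the largest such overlap among the members, and whether counting used strand is not given in the sources used here.

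Thrsp (Spot 14), a small protein that promotes lipogenesis and answers to thyroid hormone, insulin and carbohydrate, varied widely among tumors. In the livers it stood at 261, 380, 530, 530 and 540 CPM. Aldafermin+MYC tumors held 1.48, 0.62, 0.67, 39.5 and 14.6 CPM, and FGF19+MYC tumors 1.73, 2.77, 1.12, 0.97 and 20.9 CPM. Thrsp in sgTrp53+MYC tumors stood at 101, 50.1, 16.7, 4.03 and 72.4 CPM. All tumors lay below all livers, and the lowest tumor values rested on 25 counts. Thrsp had log2 fold changes of -5.31 (SE 1.23, adjusted p = 0.000755), -6.34 (SE 1.29, adjusted p = 0.000232) and -3.20 (SE 1.11, adjusted p = 0.0149) with Aldafermin, FGF19 and sgTrp53 by edgeR.

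Hepatocyte markers moved with part of the spread within tumor groups. Aldafermin+MYC replicate 4 and FGF19+MYC replicate 5 had the highest summed hepatocyte marker level of their groups, 24170 and 30911 CPM, where the group medians were 11571 and 14260 CPM. The same libraries were the highest of their groups for Scd1, Acacb and Thrsp. Among sgTrp53+MYC tumors, replicate 1 had the highest marker level, 13059 CPM, and the highest Thrsp. But replicate 5, with the lowest marker level of 4673 CPM, had the highest Acacb and the next highest Thrsp. Scd1 in these tumors was highest in replicate 3, at 336 CPM, against 61.4 CPM in replicate 1. Aldafermin+MYC replicate 5, next highest of its group in markers at 16890 CPM, had the next highest Thrsp but the lowest Scd1, 94.2 CPM. With Aldafermin+MYC replicate 4 and FGF19+MYC replicate 5 left out together, an alternative chosen after seeing the data, Scd1 was still called lower than in livers at -6.57 and -6.80, Acacb at -5.81 and -5.85 and Thrsp at -6.69 and -8.09 with Aldafermin and FGF19. As these tumors were the highest of their groups for the same genes, leaving them out had to move the values down. Of the markers of adipocytes, which also express lipogenic genes, Adipoq, Plin1, Lep and Cfd were at or below 3 counts in every tumor group, and of the 5 markers only Fabp4, which macrophages and endothelium also express, was tested. The summed adipocyte markers were 23.5 to 87.3 CPM in tumors and 4.33 to 18.2 CPM in livers.

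**Figure D4:**
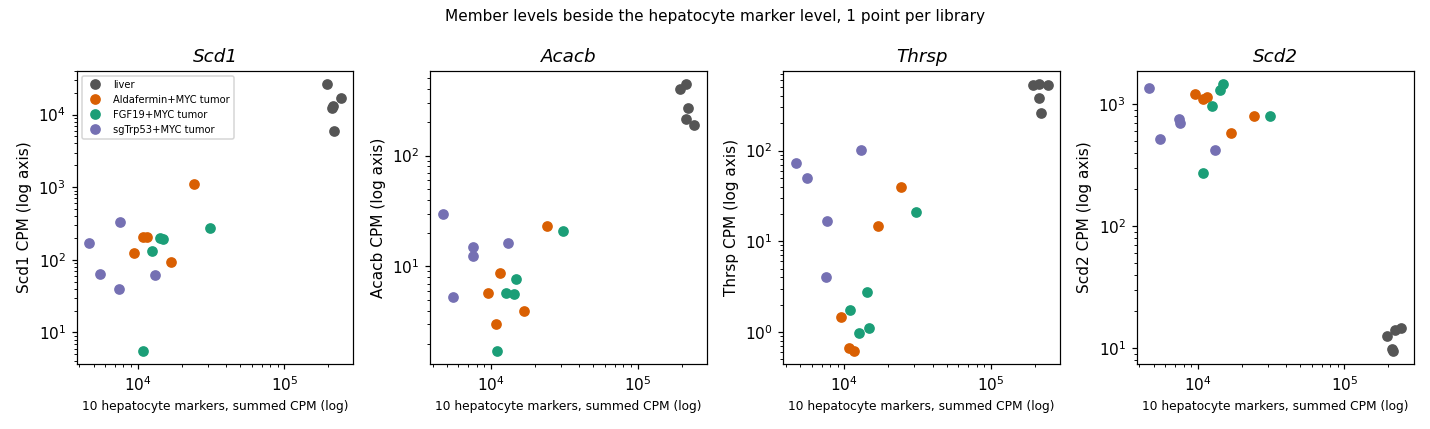
Scd1, Acacb, Thrsp and Scd2 in CPM against the summed CPM of 10 hepatocyte markers (all axes logarithmic), 1 point per library. The livers stand apart at 194280 to 243210 CPM of marker RNA, and Aldafermin+MYC replicate 4 and FGF19+MYC replicate 5 are the tumors furthest to the right.

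Other cell types were read beside these values. Summed macrophage markers were 150 to 450 CPM with Aldafermin, 248 to 460 CPM with FGF19, 83.0 to 164 CPM with sgTrp53 and 339 to 515 CPM in livers. Of the 5, Cd68 was called higher than in livers by 2.22, 1.55 and 1.11 with Aldafermin, FGF19 and sgTrp53, and 2, 2 and 4 were called lower. Endothelial markers summed to 47.5 to 167 CPM in tumors and 214 to 321 CPM in livers, and stellate cell and fibroblast markers to 110 to 1551 CPM and 247 to 381 CPM. Of the 5 endothelial markers 3 were called lower in each tumor group, and Pecam1 and Cdh5 were called in none. The 5 stellate cell and fibroblast markers held 2 higher and 2 lower in each. Of all genes 31.9% to 33% were lower and 36.9% to 38.4% higher, and no amount of cells is read from the sums. Biliary markers ranged from 1.81 to 779 CPM in tumors, the highest being sgTrp53+MYC replicate 2, and from 44.3 to 124 CPM in livers. T and B cell markers stayed between 0.463 and 5.6 CPM in all libraries, and none of the 5 was tested. The part of these cells in the lipogenic levels was not tested.

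FGF19 and Aldafermin were compared directly, in tumors that share MYC and differ in the N-terminal end of the hormone. No member was called: 0 of the 10 were called in either direction and 0 passed even an unadjusted p of 0.05, and of all 14333 genes 0% were called higher and 0% lower by edgeR's quasi-likelihood test, with 1048 at an unadjusted p under 0.05. Other tools called 96 genes (DESeq2) and 59 genes (edgeR likelihood ratio test). The intervals say how large a difference could have gone unseen. For Srebf1 the log2 difference, Aldafermin+MYC minus FGF19+MYC, was -0.01 with a 95% interval of -0.47 to 0.44, for Elovl6 -0.02 (-0.53 to 0.49), for Acly 0.10 (-0.42 to 0.62) and for Scd2 0.01 (-0.73 to 0.75). Fasn (-0.01, interval -0.79 to 0.77) and Acaca (0.09, interval -0.66 to 0.84) were bounded within a factor of 2. The interval was wider for Acacb, -1.14 to 1.29, and for Scd1 and Thrsp it reached from -0.57 to 2.73 and from -1.17 to 3.23.

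Mlxipl had the smallest p of the members in that comparison, with 94.5 ± 21.7 CPM with Aldafermin and 126 ± 27.1 CPM with FGF19 (SD, n = 5 each). Its log2 difference was -0.42 (95% interval -0.91 to 0.07, adjusted p = 0.778 by edgeR). Without Aldafermin+MYC replicate 4 the Scd1 difference of 1.08 was -0.05, without FGF19+MYC replicate 1 it was 0.77, and it lay between 1.02 and 1.37 without any other single tumor of the 2 groups. None of the 4 ratios passed between FGF19+MYC and Aldafermin+MYC tumors, with adjusted p from 0.183 to 0.984 in exact permutation tests.

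**Figure D5:**
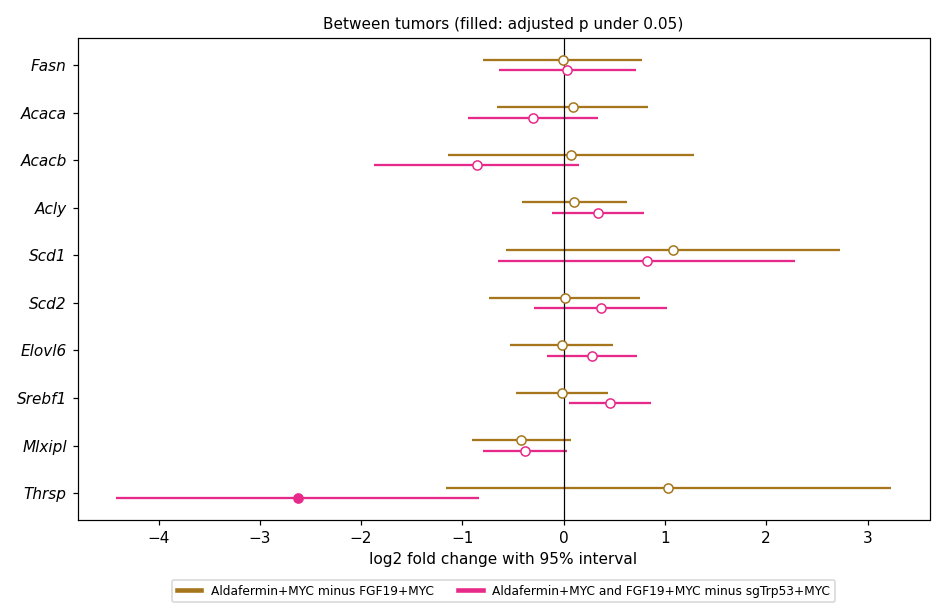
Log2 differences of the 10 genes between tumor groups, with 95% intervals (horizontal axis). Filled points passed an adjusted p of 0.05: Thrsp, at -2.63 for Aldafermin+MYC and FGF19+MYC minus sgTrp53+MYC tumors, is the only one.

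The Aldafermin+MYC and FGF19+MYC tumors, pooled with equal weights and called hormone tumors below, were then set against the sgTrp53+MYC tumors. Those share MYC but carry the construct against Trp53 in place of the hormone or its analog. Hormone, Trp53 construct and count table therefore cannot be told apart in any difference between these groups. Thrsp was the 1 member called, lower in the hormone tumors, where 12.1% of all genes were called lower and 11.6% higher, and 0 members were called higher. Its log2 difference was -2.63 (SE 0.86, adjusted p = 0.0322 by edgeR), with means of 11.4 ± 16.8 and 5.49 ± 8.63 CPM with Aldafermin and FGF19 against 48.8 ± 39.7 CPM with sgTrp53 (SD, n = 5 each). The ranges overlapped. Without FGF19+MYC replicate 2 or 3 or sgTrp53+MYC replicate 1, 2 or 5 the adjusted p lay between 0.0502 and 0.0818 and the difference between -2.18 and -2.62. Without Aldafermin+MYC replicate 4 and FGF19+MYC replicate 5 together, left out after seeing the data, the difference was -4.19 (adjusted p = 0.000922). These tumors held the highest Thrsp of their groups, so leaving them out had to lower the hormone level and lends the call no support. Taken singly, neither Aldafermin+MYC (-2.11, adjusted p = 0.181) nor FGF19+MYC tumors (-3.14, adjusted p = 0.0616) passed.

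Srebf1 lay 0.46 higher on the log2 scale in the hormone tumors (95% interval 0.06 to 0.86) and did not pass adjustment (adjusted p = 0.0909 by edgeR). It passed without Aldafermin+MYC replicate 5 (adjusted p = 0.0427) or without FGF19+MYC replicate 1 (adjusted p = 0.0379). Acacb, at -0.86 (adjusted p = 0.210), passed without Aldafermin+MYC replicate 4 (-1.22, adjusted p = 0.0494) and without that tumor and FGF19+MYC replicate 5 (-1.56, adjusted p = 0.00708). Both tumors held the highest Acacb of their groups, so leaving them out had to lower the hormone level. Mlxipl was at -0.38 (adjusted p = 0.173). Fasn was close to level, at 0.04 with an interval of -0.64 to 0.71, and the values of Acly, Elovl6, Scd1 and Scd2 were 0.34, 0.28, 0.82 and 0.36, with adjusted p from 0.280 to 0.429.

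The balance between the transcription factors also differed. The log2 ratio of Srebf1 over Mlxipl counts was 0.83 ± 0.30 with Aldafermin, 0.42 ± 0.43 with FGF19, -0.13 ± 0.39 with sgTrp53 and 0.54 ± 0.27 in livers (SD, n = 5 each). The 10 hormone tumors were 0.75 above the 5 sgTrp53+MYC tumors (p = 0.00566, adjusted 0.0159, two-sided exact permutation test), and leaving out any 1 library gave 0.66 to 0.87. The sgTrp53+MYC tumors were split, at 0.25 and 0.34 in replicates 1 and 2 and -0.34, -0.40 and -0.49 in replicates 3 to 5. Leaving out 1 library does not examine such a split, which follows the sample numbers in the labels. The sgTrp53+MYC tumors were 0.67 below the livers (a difference of -0.67, exact p = 0.0238, adjusted 0.0433), a call lost without liver replicate 1, 2, 3 or 4 or sgTrp53+MYC replicate 3, 4 or 5, at adjusted p from 0.0722 to 0.101. Of the 10 hepatocyte markers, 3 were called higher and 1 lower in the hormone tumors than in the sgTrp53+MYC tumors. Of all genes 11.6% were called higher and 12.1% lower in this comparison, so no single shift of the markers is read from these counts. The hormone and sgTrp53+MYC tumors also differed in the Trp53 construct and in their count tables.

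Other genes of the pathway, from 5 lists also chosen with earlier results of these data known, were read around the members. Their counts stand beside the shares of all genes tested, of which 31.9%, 32.9% and 33% were called lower and 38.4%, 36.9% and 36.9% higher than livers in Aldafermin+MYC, FGF19+MYC and sgTrp53+MYC tumors, with medians of 0.13, 0.06 and 0.07. Of 8 genes that supply acetyl-CoA and NADPH, 6 were called lower and 2 higher than livers in each tumor group, where 31.9% to 33% of all genes were lower, with medians of -2.47, -2.44 and -2.50 in the order Aldafermin, FGF19, sgTrp53. Me1, malic enzyme, was at 499 ± 205 CPM in livers and 26.8 ± 10.6 CPM in FGF19+MYC tumors (-4.22, adjusted p = 7.95e-09 by edgeR). Slc25a1, the mitochondrial citrate carrier, fell by 1.41 in the same comparison, and G6pdx, which opens the pentose phosphate pathway, rose by 2.70, from 13.4 ± 4.30 to 86.7 ± 15.03 CPM. Against sgTrp53+MYC tumors, 91.9 ± 8.81 CPM, Me1 was lower in the hormone tumors by -1.67 (adjusted p = 0.000332) and Slc25a1 higher by 0.35 (adjusted p = 0.0331).

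Of 13 further elongation and desaturation genes, 10 were tested, and 7, 7 and 8 were lower and 1 higher than in livers in the Aldafermin+MYC, FGF19+MYC and sgTrp53+MYC tumors, with medians of -0.84, -0.96 and -1.05. Of all genes 31.9%, 32.9% and 33% were lower in these comparisons. In FGF19+MYC tumors the polyunsaturated fatty acid elongase Elovl5 fell by 3.21 and the delta-5 desaturase Fads1 fell by 2.84, while Elovl7, an elongase of saturated chains, rose by 3.74 from 0.92 CPM. Scd3, Scd4 and Elovl3 did not pass the filter. Fads1 was 1.47 higher (adjusted p = 0.000111), Fads2, the delta-6 desaturase, 0.98 higher (adjusted p = 0.0173) and Tecr, which completes each elongation cycle, 0.35 higher (adjusted p = 0.0197) in the hormone tumors than in sgTrp53+MYC tumors by edgeR.

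Among 16 upstream regulators 9 were lower than in livers in each tumor group and 3, 3 and 2 higher, with medians of -0.65, -0.90 and -1.04, beside 31.9% to 33% of all genes lower and 36.9% to 38.4% higher. Insig2, which holds SREBP in the endoplasmic reticulum, fell by 3.24 with FGF19, from 215 ± 52.2 to 22.7 ± 4.53 CPM, and Rxra, the partner of LXR, fell by 2.22. Mbtps2, the site-2 protease that releases SREBP, rose by 2.00. Scap, the SREBP escort protein, was 0.92 higher in the hormone tumors than in sgTrp53+MYC tumors (adjusted p = 0.00256 by edgeR), with Nr1h2 (LXR beta) 0.41 and Usf1 0.35 higher.

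Of the 9 genes of the AMP-activated kinase and lipogenic cofactors, 2 were higher in every tumor group and 5, 5 and 4 lower, with medians of -0.85, -0.72 and -0.24. With 31.9% to 33% of all genes lower and 36.9% to 38.4% higher, nothing particular to this small list is read from these counts. In FGF19+MYC tumors the catalytic subunit Prkaa1 rose by 1.67 while the other, Prkaa2, fell by 1.41, and Mid1ip1, a relative of Thrsp that activates acetyl-CoA carboxylase, fell by 1.44. Prkaa2 and the regulatory subunit Prkag2 were lower in hormone than in sgTrp53+MYC tumors, by -0.92 and -0.54 (adjusted p = 0.00109 and 0.00196 by edgeR).

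Of 15 triglyceride synthesis and storage genes 13 were tested, and 12, 13 and 11 fell and 0 rose with Aldafermin, FGF19 and sgTrp53, beside 31.9%, 32.9% and 33% of all genes lower, with medians of -1.71, -2.16 and -1.66. Dgat2, which makes triglyceride from newly made fatty acids, went from 1098 ± 97.5 CPM in livers to 348 ± 70.8 CPM with FGF19, the lipid droplet protein gene Cideb fell by 3.28 and the lipase gene Pnpla2 fell by 1.76. Dgat2 and the lipid droplet coat gene Plin2 were 0.76 and 1.09 higher in hormone than in sgTrp53+MYC tumors (adjusted p = 0.00141 and 0.00526 by edgeR), and Plin4, at low level, was lower by -1.74 (adjusted p = 0.0127).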

How the data were processed

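The authors extracted RNA from livers and from snap-frozen individual tumors and made stranded mRNA libraries (TruSeq). They sequenced paired ends and aligned them with HISAT2 to mouse build mm39. The authors took gene counts from htseq-count with RefSeq annotation. The submitters' processing notes name bcl2fastq 2.20.0.422. The deposited values are raw counts per gene in 2 tables, 1 of them for the sgTrp53+MYC libraries, and 0 sample columns were left out. The 5 summary lines of each table (unassigned reads) were removed. The strand setting of the counting is not given in the sources used here.

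Counts of the 20 libraries were joined by symbol, and a gene was tested where 5 or more libraries reached 1 CPM (14333). One model of the 4 groups was fitted to all libraries with edgeR 4.0.16 (TMM, quasi-likelihood F test, R 4.3.3), and p-values were adjusted by Benjamini-Hochberg over all genes tested. Standard errors and 95% intervals were derived from the F statistics. Ratios used counts plus 0.5 and two-sided exact permutation tests over libraries, adjusted over 20 tests. CPM are on the TMM scale, and CPM per kb divide by the union of GENCODE exons on GRCm39. The fit was tested on simulated data. The 40 pairs of libraries within a group differed by more than counting noise (chi-square per degree of freedom at least 10.8), so none was counted as a repeat.

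Alternatives were DESeq2 1.42.0, edgeR's likelihood ratio test, other scalings and filters, a GC and length correction, a replicate block, only the groups compared and leaving out each library. Genes named are all 10 members and, from each of 5 other pathway lists, up to 3 genes with the smallest adjusted p in FGF19+MYC tumors against livers and in the pooled tumors against sgTrp53+MYC tumors, plus the 2 genes nearest in profile to each member, which are not reported here for Acaca and Acly. Members and lists were chosen with earlier results of these data known.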

Additional observations from a re-analysis of the deposited data

Results flagged for a closer look

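In 56 groups of 5 values (10 genes and 4 ratios in 4 groups), 7 held a library further from the rest than Dixon's 95% limit. For independent, normally distributed values chance alone flags about 1 in 20, or 2.8. CPM on a linear scale need not be normal, and the ratios reuse the same genes. No excess over chance is therefore read from the 7 flags. Aldafermin+MYC replicate 4 accounted for 3 of them: its Scd1 of 1093 CPM stood above 94.2 to 204 CPM in the other Aldafermin+MYC tumors, its Acacb of 22.9 CPM above 3.04 to 8.81 CPM, and its log2 ratio of Scd2 over Scd1 of -0.44 below 2.42 to 3.26. FGF19+MYC replicate 5 held 20.9 CPM of Thrsp against 0.97 to 2.77 CPM in the other FGF19+MYC tumors. Both tumors had the highest hepatocyte marker level of their groups, and its part in these values was not tested.

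Liver replicate 3 was highest for Acaca, 383 CPM against 191 to 241 CPM, and for Acly, 1249 CPM against 514 to 700 CPM. Liver replicate 2 had the highest log2 ratio of Acacb over Acaca, 0.90 against -0.11 to 0.17.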

How the results depend on the processing

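No result changed direction past its threshold. Of 1030 refitted member fold changes 1001 kept their side of the threshold, as did 253 of 260 ratio differences, and 287 of 309 counts stayed within 1.5 times. Under library size alone 5 members were called lower with Aldafermin and 5 with FGF19, in place of 9. Genes called between Aldafermin+MYC and FGF19+MYC tumors, 0 in the fit reported, were 96 by DESeq2, 59 by the likelihood ratio test, 2 with RLE size factors, 10 without Aldafermin+MYC replicate 4 and FGF19+MYC replicate 5 together, and 0 to 29 leaving out 1 library (6 without Aldafermin+MYC replicate 2, 29 without replicate 4). In the pooled tumors against sgTrp53+MYC tumors, members called lower were 0 with only the groups compared (Thrsp adjusted p = 0.0678 by edgeR), 2 with the GC and length correction (Mlxipl -0.58, adjusted p = 0.0158), 2 without both tumors of highest hepatocyte marker level, 0 with Aldafermin+MYC or FGF19+MYC tumors alone, and 0 to 2 leaving out 1 library, with 0 to 1 called higher. FGF19+MYC tumors alone gave 2258 genes called in place of 3399. Srebf1 over Mlxipl in sgTrp53+MYC tumors against livers ranged from -0.78 to -0.57. Acaca in sgTrp53+MYC tumors passed with DESeq2 (-0.76, adjusted p = 0.0455) and the GC and length correction (-0.78, adjusted p = 0.0147), and in Aldafermin+MYC tumors did not without a filter (-0.79, adjusted p = 0.0684). The cause was not tested.

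Replicate numbers are shared between groups, whose tumors the study describes as taken from different mice. Deviations of same-numbered libraries correlated from -0.33 to 0.33 over 30 pairs, with 6 over 0.1, so the numbers do not pair the samples. With a replicate block, genes called were 10036, 9942 and 9981 against livers, and Acaca in sgTrp53+MYC tumors passed (-0.80, adjusted p = 0.0387), raising the members lower there from 8 to 9. Depth limits Thrsp most, at 25 counts in the lowest tumors.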

Other observations

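By the Euclidean distance between log2 CPM profiles, each centered on its mean over the 20 libraries, the 2 nearest of 14332 genes were Rgn (2.70) and Acss2 (3.05) for Acacb, Slc26a1 (5.20) and Agxt (5.23) for Scd1, Cdca8 (2.06) and Eme1 (2.18) for Scd2, and Upp2 (3.94) and Gm41999 (4.48) for Thrsp. Srebf1 lay nearest to Fgfr4 (1.15) and Sqstm1 (1.16), Mlxipl to St6galnac6 (1.07) and Mavs (1.14), and Fasn to 2900026A02Rik (1.53) and Irgq (1.55). Elovl6 lay nearest to Nceh1 (1.304) and Acly (1.32). Elovl6 and Acly were each other's nearest member, while the member nearest to Scd2, Acaca, ranked 10343 among the genes. The profiles share libraries and scaling.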
